A study of Mus musculus with 10 samples.

Results

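Proteasome subunit genes were followed by total RNA-seq in wild-type NIH3T3 cells, which are immortalised fibroblasts from mouse embryos, while the culture temperature was moved between 38 and 33 °C. The genes were the 39 rows of 38087 whose symbol begins with Psma to Psme followed by a number and whose exon reads averaged at least 100 over the 22 exon columns of the deposited tables. The symbol pattern alone fitted 43 rows, and the response to temperature played no part in this rule. All cells were seeded at 37 °C for 4 h and then held for 16 h at 38 °C or at 33 °C. The first group was then moved to 33 °C (the downshift) and the second to 38 °C (the upshift), and each course has 1 sample at the moment of the shift (0 h) and others at 1, 3, 6 and 9 h after it, which gives 10 samples. Both courses therefore start from cells with 16 h at their first temperature, and no course was left unshifted.

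The proteasome is the protease that degrades proteins tagged with ubiquitin. Its core particle is a barrel of alpha rings, which gate the entry, and beta rings, which hold the proteolytic sites. A regulatory particle caps the barrel, with a base of ATPases that unfold the substrate and a lid that removes the ubiquitin. Other caps, the activators, open the barrel without the ubiquitin machinery, and dedicated chaperones help the base assemble. In fibroblasts, as in other cells, most subunits are made all the time and in matched amounts, and a group of beta subunits is exchanged for immune forms after interferon.

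Exon reads per sample ranged from 60398822 to 85692835 and intron reads from 34447769 to 45040296, as sums over 2 columns of numbered series. Series 5 and 11 cover the downshift and series 2 and 13 the upshift, with no label that explains the numbers. The component with the most variance among the columns (46.8%) separated series 2 and 5 from series 10, 11 and 13, so values within series 2 and 5 and within series 11 and 13 stand beside the results. Each series lies in 1 course only, so at 0 h a difference between series and one between temperatures cannot be told apart. The 8 fibroblast markers summed to between 2581 and 2800 RPKM (exon reads scaled by exon length and library size) in the downshift samples and between 3152 and 3720 RPKM in the upshift samples. Vim was the largest part (mean 1438 RPKM), and its ranges in the courses overlapped. Every other fibroblast marker was higher in each upshift sample than in any downshift sample. Fn1, for example, was at 500 to 584 RPKM in the upshift and 220 to 259 RPKM in the downshift. The 8 markers of epithelial, endothelial, blood and muscle cells summed to at most 1.77 RPKM, with Myod1 at 0 in every sample and Ptprc at most 0.00157 RPKM. The part of the difference in marker level between the courses in the results was not tested. Cirbp, which cold is known to induce, differed between the shifts by 7.33 ± 0.59 on the log2 scale (SE; edgeR quasi-likelihood test, adjusted p = 7.98e-05).

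The summed level of the proteasome genes rose a little over the 9 h after cooling and fell over the 9 h after warming. Exon RPKM summed over the 39 genes was 1965, 2029, 2138, 2225 and 2255 at 0, 1, 3, 6 and 9 h of the downshift, a gain of 14.8% from the first to the last sample. In the upshift the sum was 2089, 2165, 2064, 1929 and 1959, and it fell by 6.2% over the same time. The sum rose at every step of the downshift, while in the upshift it stood highest at 1 h and lowest at 6 h. The values are relative to the other RNA of the same sample, so fewer cells with an RNA and less RNA per cell cannot be told apart.

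Levels differed far more between subunits than between temperatures. Psmc5, an ATPase of the base, was the most abundant, with a mean exon level of 140.7 RPKM over the 10 samples, and Psmd9, a base assembly chaperone, the least, with 4.02 RPKM. The median over the 39 genes was 44.8 RPKM. Means ran from 26.2 (Psma3) to 98.0 RPKM (Psma6) in the alpha ring and from 33.7 (Psmb5) to 123.4 RPKM (Psmb2) in the beta ring. They ran from 28.2 (Psmc2) to 140.7 RPKM (Psmc5) among the ATPases and from 21.2 (Psmd11) to 69.9 RPKM (Psmd12) in the lid. The activators lay between 9.66 (Psme1) and 51.3 RPKM (Psme3). The members lie on 15 chromosomes, and 19 of them overlap another annotated gene (GENCODE M21).

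**Figure D1:**
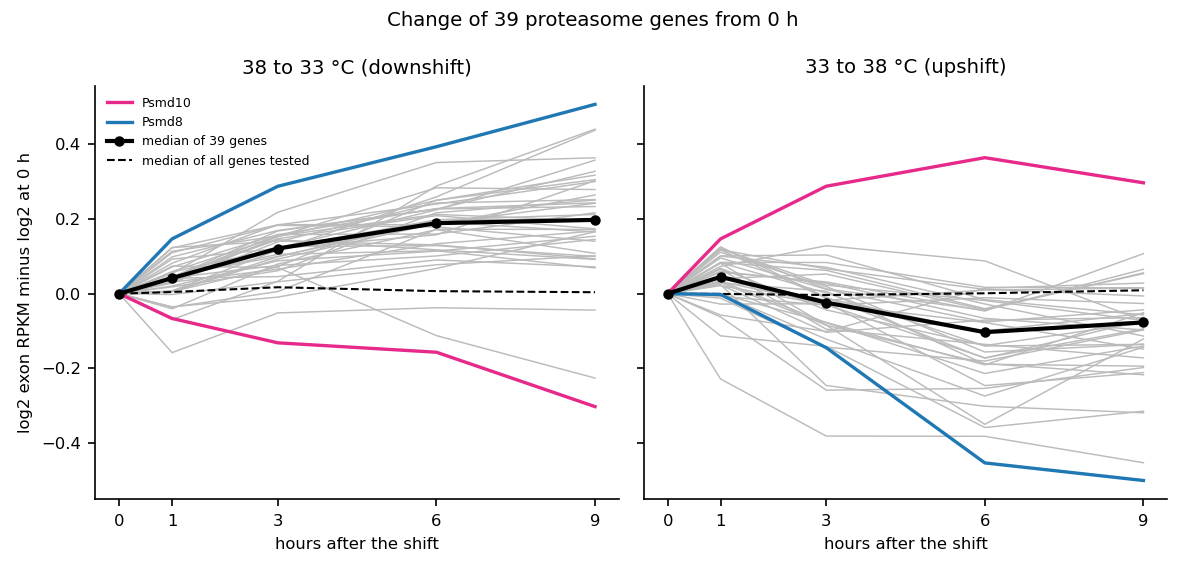
Log2 exon RPKM of each of the 39 genes minus its value at 0 h of the same course, against hours after the shift. Grey lines are single genes, the thick black line is their median, which reached 0.20 at 9 h of the downshift and -0.08 at 9 h of the upshift, and the dashed line is the median of all genes tested. Psmd8 (blue) and Psmd10 (pink) are the extremes at 9 h of both courses.

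The change built up over hours. The median of the 39 genes, as log2 exon RPKM against 0 h, was 0.04, 0.12, 0.19 and 0.20 at 1, 3, 6 and 9 h of the downshift. In the upshift it was 0.04, -0.02, -0.10 and -0.08, so in the summed columns the first hour was slightly above the start in both courses. The median of all 10174 genes tested stayed between -0.0036 and 0.017. No member was at least 25% above or 20% below its 0 h level after 1 h of either course (background 2.87% higher and 3.31% lower after the downshift, 4.34% and 3.75% after the upshift). By 9 h of the downshift 36 of 39 were above their start (background 50.4%), 6 of them by at least 25% (background 16.2%), namely Psmb3, Psmb4, Psmd1, Psmd8, Psme1 and Psme4. By 9 h of the upshift 31 of 39 were below their start (background 48.9%), Psmb10 and Psmd8 by at least 20% (background 16.2%).

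The median course differed between the column series. At 1 h the members' medians in log2 units were 0.07 within series 5 and 0.13 within series 2. They were -0.0033 within series 11 and -0.0085 within series 13, so the early rise was absent there. For all genes tested these medians were -0.0014, 0.012, -0.0037 and -0.0076. At 3 h of the downshift 37 of 39 genes were above 0 h within series 5, but 9 of 39 within series 11. Their medians in log2 units were 0.24 and -0.03, against -0.0018 and -0.0015 for all genes tested. At 9 h of the upshift 22 were above 0 h within series 2 and 1 within series 13. Here the members' medians were 0.03 and -0.26, against 0.016 and -0.011 for all genes tested. The share of all genes above 0 h was not counted within single series.

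The next comparison asks which genes change differently after cooling and after warming, which includes genes that change in 1 course only. A straight line over the log2 of hours plus 1 was fitted to the exon reads of every gene in each course, and its change from 0 to 9 h was compared between courses, downshift minus upshift. For 22 of the 39 proteasome genes the change was higher after the downshift (edgeR quasi-likelihood test, adjusted p under 0.05 over 10174 genes), which is 56.4% of them, where 23.7% of all genes tested were called in that direction. Psmd10 alone was called in the other direction, against a background of 22.9%. The median difference of the members was 0.36 on the log2 scale (quartiles 0.19 and 0.49), that of all genes tested 0.01, and 37 of 39 lay above 0 (background 50.7%).

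Within series 2 and 5 the same fit called 13 members higher and 1 lower (background 18.4% and 19.4%), with a median of 0.26. Within series 11 and 13 it called 21 higher and none lower (background 20.1% and 17.8%), with a median of 0.47. In both pairs 37 members lay above 0, and 36 did so in both, as did 4124 of all 10174 genes tested. Called higher in both pairs were Psma5, Psmb1, Psmb2, Psmb4, Psmd1, Psmd3, Psmd4, Psmd8, Psme1, Psme2 and Psme4, which is 11 of the 13 and of the 21. Of all 10174 genes tested, 1268 were called higher in both pairs. Over the 39 genes, which share their libraries and are not independent, Pearson's r of the difference was -0.0042 with log2 mean exon RPKM, 0.09 with log2 exon length and -0.08 with log2 intron length.

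**Figure D2:**
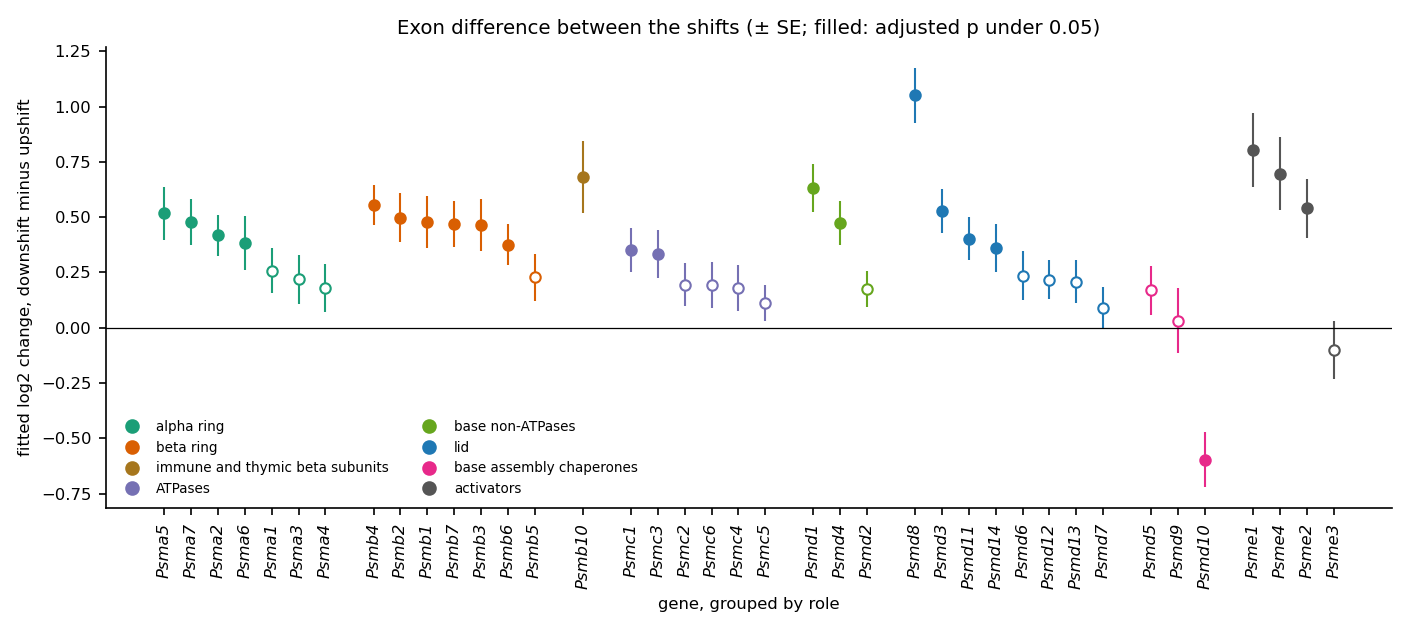
Fitted exon change from 0 to 9 h, downshift minus upshift, in log2 units for each of the 39 genes, grouped and coloured by role. Bars are standard errors and filled points have an adjusted p under 0.05. Psmd8 at 1.05 is the highest and Psmd10 at -0.60 the lowest, and all 7 beta ring genes lie above 0.

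Each course was then tested alone. After the downshift 19 members rose and 1 fell, against backgrounds of 15.9% and 16.2%, with a median change of 0.21. After the upshift 10 fell and 1 rose, against backgrounds of 17.0% and 16.2%, with a median of -0.13. Within series 5 the downshift count was 14 higher and none lower (background 10.3% and 12.3%). Within series 11 it was 2 higher and 1 lower, Psme3 (background 10.8% and 10.1%), so the share higher was below that of all genes. Within series 2 the upshift count was 2 lower and 1 higher, both below the shares of all genes (14.5% and 15.0%). Within series 13 it was 16 lower and none higher (background 12.7% and 9.83%). The downshift count of 20 calls also fell to 3 without the 9 h downshift sample, to 6 without the 0 h or the 6 h one and to 10 without the 1 h one. The upshift count of 11 fell to 3 without the 6 h upshift sample, to 5 without the 1 h one and to 6 without the 9 h one. It fell to 7 without the 1 h downshift sample. The shares of all genes called in these fits are not given here, so these falls cannot be set against those of all genes.

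**Figure D3:**
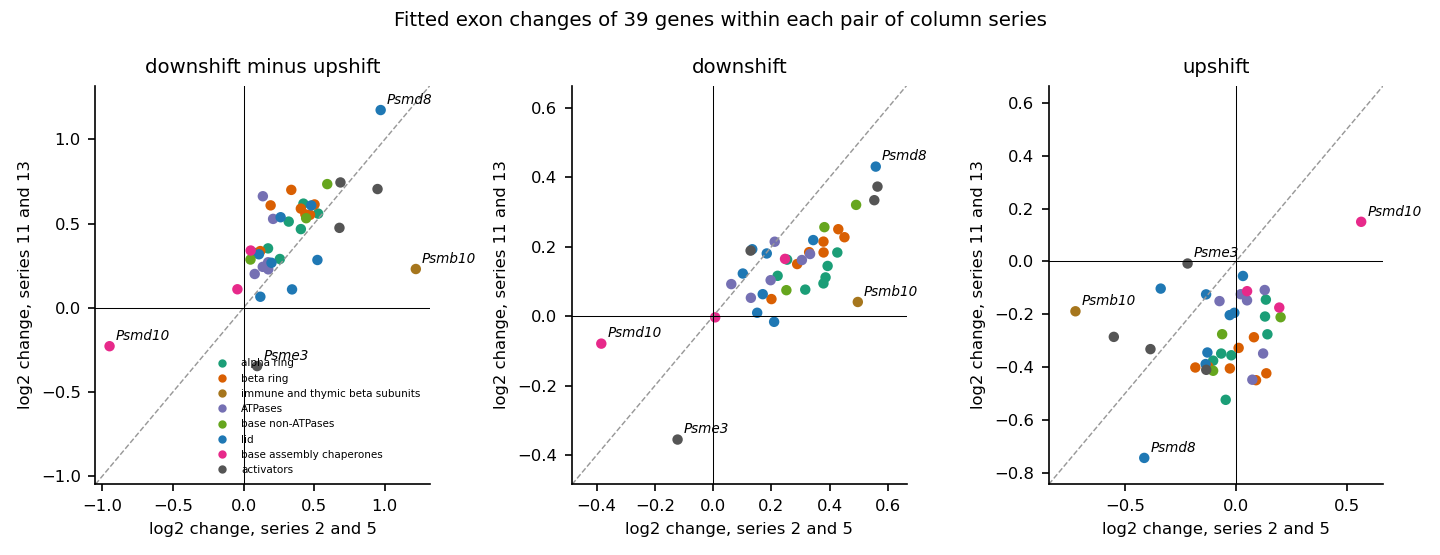
Fitted exon changes of the 39 genes in log2 units within series 2 and 5 (horizontal) and within series 11 and 13 (vertical), for the difference between the shifts and for each course. Points are genes coloured by role and the dashed line marks equal values. For the difference 36 genes are above 0 in both pairs, while in the upshift 22 are below 0 on the horizontal axis and 38 on the vertical one.

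In 6 genes both changes were called, a rise after the downshift and a fall after the upshift: Psma7, Psmb4, Psmd1, Psmd3, Psmd8 and Psme1 (background 8.00%). Psmd10 was the 1 gene with both calls the other way round (background 8.62%). By sign alone 34 of 39 had a fitted change above 0 in the downshift and below 0 in the upshift (background 36.2%). No member was called for a shared change with time in both courses, the mean of the 2 slopes, with edgeR, DESeq2 or limma (background 3.30% in edgeR), and 4 had an unadjusted p under 0.05.

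Promoters of 4 of these genes are shown because their RNA moved in opposite directions from the same start: Psmd8, Psma7 and Psmb4 rose in the cold and Psmd10 fell. Each line holds the 250 bases before the start site, 5′ to 3′ on the gene's strand, from RefSeq (GRCm38.p6). The windows are chr7:29180674-29180923 for Psmd8, chr2:180042465-180042714 for Psma7, chr3:94886959-94887208 for Psmb4 and chrX:140956712-140956961 for Psmd10, all on the minus strand. Capitals mark matches to the motifs searched, and Psmb4 has none.
Psmd8: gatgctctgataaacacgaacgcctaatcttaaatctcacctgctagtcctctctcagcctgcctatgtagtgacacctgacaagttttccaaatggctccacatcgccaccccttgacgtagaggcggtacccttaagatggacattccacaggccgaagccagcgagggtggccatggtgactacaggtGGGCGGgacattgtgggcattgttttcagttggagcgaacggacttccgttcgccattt
Psma7: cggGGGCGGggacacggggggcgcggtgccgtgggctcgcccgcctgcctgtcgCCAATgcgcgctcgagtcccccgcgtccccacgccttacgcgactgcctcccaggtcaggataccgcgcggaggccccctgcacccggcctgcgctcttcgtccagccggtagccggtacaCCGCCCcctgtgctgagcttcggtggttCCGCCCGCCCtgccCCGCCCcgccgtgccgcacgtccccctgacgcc
Psmb4: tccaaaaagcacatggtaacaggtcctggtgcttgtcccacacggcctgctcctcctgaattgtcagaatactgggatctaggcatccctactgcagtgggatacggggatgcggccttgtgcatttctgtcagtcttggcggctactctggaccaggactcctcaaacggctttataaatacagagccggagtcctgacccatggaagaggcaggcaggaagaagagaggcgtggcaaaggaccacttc
Psmd10: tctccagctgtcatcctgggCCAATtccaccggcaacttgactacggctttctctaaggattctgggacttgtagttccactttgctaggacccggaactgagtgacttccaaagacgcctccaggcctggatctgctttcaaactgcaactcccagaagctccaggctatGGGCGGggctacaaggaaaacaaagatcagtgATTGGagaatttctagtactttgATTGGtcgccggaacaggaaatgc

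Motifs were searched on both strands in windows of 300 bases, 250 before the start and 50 after it, for the 33 members that matched the RefSeq table. Psmb1, Psmb2, Psmb7, Psmc3, Psmd3 and Psmd7 had no entry. The GC box GGGCGG was in 21 of 33 windows (63.6%), against 35.7% of all 32851 promoters and 46.2% of those of protein-coding genes. Psmd8 has it at base -59 from the start, and Psmd10 at -79. The alpha-Pal motif, a site of the transcription factor Nrf1 (a gene other than Nfe2l1), was in 6 windows (18.2%, against 4.6% of all promoters and 6.38% of protein-coding ones). The CCAAT box CCAAT was in 12 (36.4%, against 37.4% of all and 38.2% of protein-coding promoters), with matches in Psmd10 that begin at bases -230, -47 and -24. The core of the antioxidant response element, TGACNNNGC, which Nfe2l1 and related factors are known to bind, was in 6 (18.2%, against 12.4%). The E-box CACGTG was in 4 (12.1%, against 7.15% of all and 7.84% of protein-coding promoters). The heat shock element, the site of the heat shock factors, and the cAMP response element TGACGTCA were in none of the 33 windows. They were in 0.603% and 1.79% of all promoters and in 0.517% and 2.23% of protein-coding ones. In Psma7 GC box matches overlap each other, and matches of different motifs do not overlap in the windows printed.

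Psmd8, a lid subunit that joins late in lid assembly, had the largest change of the 39. The gene (ENSMUSG00000030591) lies on chromosome 7 (GRCm38, 29174188 to 29180701, minus strand) and overlaps no other annotated gene. Its exon level was 33.4, 37.0, 40.8, 43.9 and 47.5 RPKM over the downshift and 52.4, 52.3, 47.4, 38.2 and 37.0 RPKM over the upshift. In the summed columns it rose at every step after cooling and fell from 1 h on after warming. Each course ended nearer to where the other had begun. Within series 5 alone the rise was not stepwise. There Psmd8 was 0.50 above 0 h at 3 h in log2 units, and no member was more than 0.45 above at 6 h. The fitted change was 0.49 ± 0.09 after the downshift and -0.56 ± 0.09 after the upshift (SE; edgeR, adjusted p = 0.00405 and 0.00179). The difference was 1.05 ± 0.13 (adjusted p = 0.000225), 0.97 within series 2 and 5 and 1.18 within series 11 and 13. Within series 2 the upshift change of -0.41 was not called (adjusted p = 0.0580).

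Psmd10, also named gankyrin, binds an ATPase during base assembly and is not part of the finished particle. It (ENSMUSG00000031429) lies on chromosome X (GRCm38, 140948429 to 140956728, minus strand). Its exon level was 19.1, 18.2, 17.4, 17.1 and 15.5 RPKM over the downshift and 15.7, 17.3, 19.1, 20.2 and 19.2 RPKM over the upshift. This is the reverse of Psmd8, with the lowest levels in the samples that had spent longest at 33 °C. The difference was -0.60 ± 0.12 (edgeR, adjusted p = 0.00357), from -0.26 ± 0.09 after the downshift and 0.34 ± 0.09 after the upshift (adjusted p = 0.0449 and 0.0173). It was -0.95 within series 2 and 5 but -0.23, with an adjusted p of 0.273, within series 11 and 13. The downshift call was lost under 13 of 19 alternatives, among them without any one of the 5 downshift samples, and the upshift call under 5, among them without the 0 h or the 6 h upshift sample. The other base chaperones, Psmd5 (0.17 ± 0.11) and Psmd9 (0.03 ± 0.15), had no call, and the Psmd9 difference changed sign within series 2 and 5 (-0.04), without the 1 h downshift sample (-0.02) and without the 9 h upshift sample (-0.11).

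**Figure D4:**
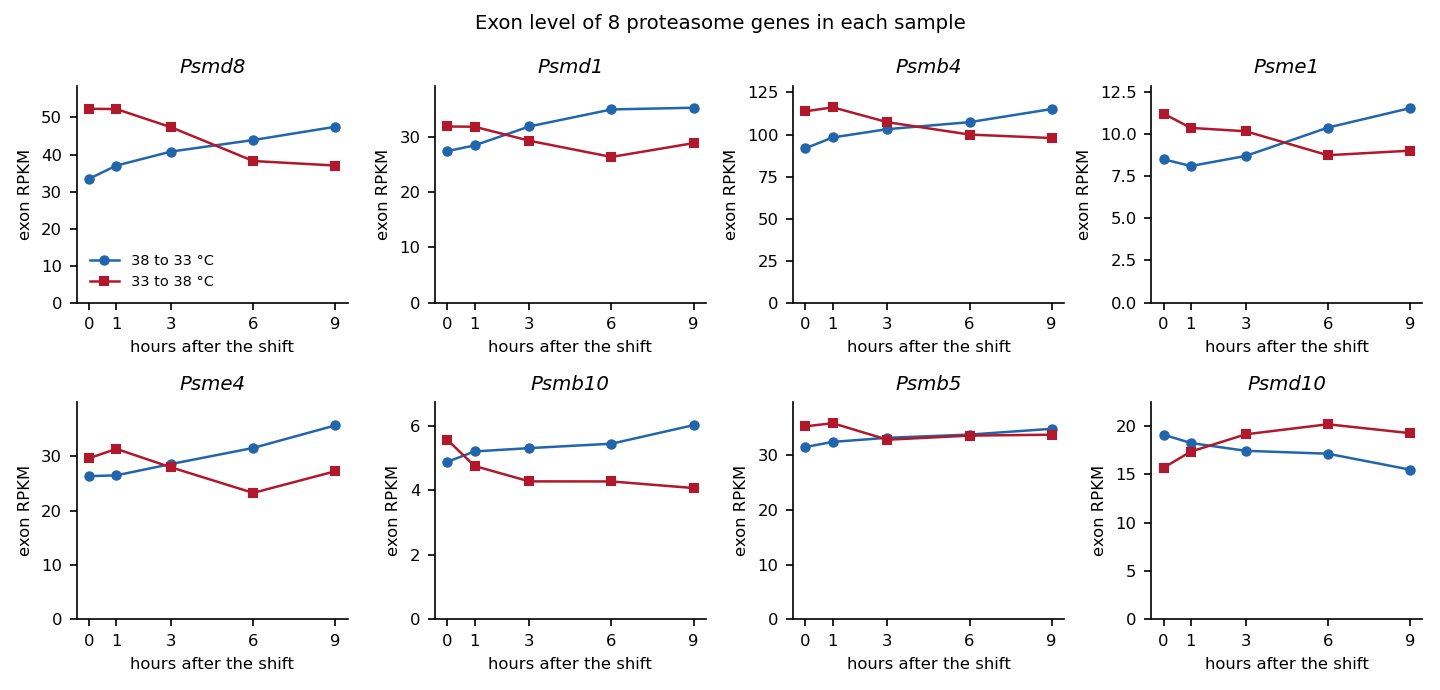
Exon RPKM of 8 proteasome genes in each of the 10 samples against hours after the shift, blue circles for 38 to 33 °C and red squares for 33 to 38 °C; axes start at 0. Psmd8 goes from 33.4 to 47.5 RPKM in the cold and from 52.4 to 37.0 RPKM in the warmth, Psmd10 goes the other way, and Psmb5 stays between 31.5 and 35.9 RPKM.

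In the alpha ring, 4 of 7 genes were called higher in the difference (Psma2, Psma5, Psma6 and Psma7), and the values of all 7 ran from 0.18 (Psma4) to 0.52 (Psma5). After the downshift Psma1, Psma2, Psma5 and Psma7 rose, and after the upshift Psma7 fell. Psma7, on chromosome 2, went from 62.6 to 75.1 RPKM in the downshift and from 69.2 to 60.5 RPKM in the upshift (difference 0.48 ± 0.10, edgeR, adjusted p = 0.00464). Within series 2 and 5 the calls of Psma2 (0.41) and Psma7 (0.42) were lost. The Psma6 call was lost there too (0.32) and without the 0 h or 9 h downshift or the 6 h upshift sample. The gene model of Psma2 overlaps a protein-coding gene on the same strand, AW209491, and reads of the overlap cannot be assigned to either from the tables.

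In the beta ring 6 of 7 genes were called higher, all but Psmb5. Psmb4, a structural beta subunit on chromosome 3, had the largest (0.55 ± 0.09, edgeR, adjusted p = 0.000942), and the 2 pairs of series gave 0.50 (2 and 5) and 0.61 (11 and 13). Its exon level was 91.8, 98.3, 103.2, 107.4 and 115.2 RPKM over the downshift and 113.8, 116.2, 107.3, 99.96 and 97.9 RPKM over the upshift. In the summed columns every downshift step was upward, as in all the other beta ring genes, the uncalled Psmb5 among them.

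The 3 constitutive proteolytic subunits differed in their calls. Psmb5, which carries the chymotrypsin-like site, was at 31.5, 32.5, 33.2, 33.8 and 34.9 RPKM in the downshift and 35.3, 35.9, 32.9, 33.6 and 33.8 RPKM in the upshift, and its difference of 0.23 ± 0.10 did not pass (edgeR, adjusted p = 0.0995; limma 0.0498). Psmb6, with the caspase-like site, went from 85.7 to 100.8 RPKM and from 88.7 to 82.9 RPKM (0.38 ± 0.09, edgeR, adjusted p = 0.00839). Psmb7, with the trypsin-like site, went from 49.0 to 58.3 RPKM and from 50.2 to 45.7 RPKM (0.47 ± 0.10, edgeR, adjusted p = 0.00485). Both calls were lost within series 2 and 5, where the differences were 0.19 for Psmb6 and 0.41 for Psmb7, as was that of Psmb3 (0.34). Whether the 3 genes differ from each other was not tested.

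Of the immune and thymic beta subunits 1 reached the minimum. Psmb10, the immune replacement of Psmb7, had a mean of 305 reads per column, the lowest of the members, and Psme1 came next with 756. Psmb9 (38.3 reads) and Psmb8 (3.91 reads), the immune replacements of Psmb6 and Psmb5, lay below the minimum, with Psmb11 (0.273 reads) and Psma8 (at 0 in every sample after rounding). Psmb9 lay between 0.220 and 0.403 RPKM and Psmb8 between 0.0106 and 0.0763 RPKM, and neither was tested. Psmb10 was at 4.88, 5.2, 5.31, 5.44 and 6.02 RPKM in the downshift and 5.57, 4.75, 4.28, 4.27 and 4.07 RPKM in the upshift. Its fall after warming was already present at 1 h. The difference was 0.68 ± 0.16 (edgeR, adjusted p = 0.00668), but 1.22 within series 2 and 5 and 0.23, with an adjusted p of 0.447, within series 11 and 13. Without the 0 h upshift sample it was 0.54 and not called. Psmb10 overlaps the antisense gene Gm16156, and no source used here states whether the counting used strand.

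Of the ATPases of the base, which unfold and thread the substrate, Psmc1 and Psmc3 were called (2 of 6). Their differences were 0.35 ± 0.10 and 0.33 ± 0.11 (edgeR, adjusted p = 0.0148 and 0.0277), and within series 2 and 5 neither was called (0.14 and 0.21). The Psmc1 call was also lost without the 0 h downshift sample, and the Psmc3 call was lost under 9 of 20 alternatives, among them 6 of the 10 fits with 1 sample left out. The other 4 had differences of 0.11 (Psmc5) to 0.20 (Psmc2). Psmc5 was higher in all 5 downshift samples, 146.7 to 158.8 RPKM, than in any upshift sample, 126.4 to 129.1 RPKM, so its level went with the course, and the courses come from different column series. Of the other base subunits, Psmd1, the scaffold of the base, and Psmd4, a ubiquitin receptor, were called (2 of 3), and Psmd2 was not in the difference (0.18 ± 0.08, edgeR, adjusted p = 0.106). Psmd1 went from 27.4 to 35.3 RPKM in the downshift and from 31.9 to 28.9 RPKM in the upshift, with its lowest level, 26.4 RPKM, at 6 h. Its difference was 0.63 ± 0.11 (edgeR, adjusted p = 0.00123), and the pairs of series gave 0.59 (2 and 5) and 0.73 (11 and 13). Its upshift call (-0.23, adjusted p = 0.0420) was lost under 10 of 19 alternatives. The gene model of Psmd1 overlaps 4 annotated genes, among them the protein-coding Gm21972 on the same strand. Reads of that overlap cannot be assigned to either gene.

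In the lid, which holds the deubiquitinase Psmd14, 4 of 8 genes were called, Psmd3, Psmd8, Psmd11 and Psmd14. Psmd3 went from 40.7 to 50.1 RPKM and from 48.5 to 42.3 RPKM (0.53 ± 0.10, edgeR, adjusted p = 0.00215), and Psmd14 differed by 0.36 ± 0.11 (adjusted p = 0.0211). The Psmd14 call was lost within series 2 and 5 (0.26), with linear hours (0.31) and without the 0 h downshift sample (0.28), and the Psmd11 call within series 11 and 13 (0.28). Psmd6, Psmd7, Psmd12 and Psmd13 had differences of 0.09 (Psmd7) to 0.23 (Psmd6) without a call.

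The activators divided. Psme1 and Psme2 encode the 2 subunits of the cap that interferon is known to induce, and Psme4 encodes a large single-chain cap of the nucleus. Psme1 was at 8.49, 8.09, 8.69, 10.4 and 11.5 RPKM in the downshift and 11.2, 10.4, 10.2, 8.73 and 9.00 RPKM in the upshift, so the last 2 downshift samples stood above the earlier 3. The difference was 0.80 ± 0.17 (edgeR, adjusted p = 0.00358), and its upshift call (-0.34, adjusted p = 0.0492) was lost under 10 of 19 alternatives. Psme2 was at 14.3, 13.99, 14.2, 15.0 and 16.1 RPKM and at 17.98, 18.3, 15.2, 14.6 and 14.4 RPKM, and its difference was 0.54 ± 0.13 (adjusted p = 0.00797). Psme4 was at 26.4, 26.5, 28.6, 31.6 and 35.7 RPKM and at 29.7, 31.4, 28.0, 23.3 and 27.3 RPKM, and its difference was 0.70 ± 0.17 (adjusted p = 0.00684). The downshift call of Psme4 (0.42, adjusted p = 0.0212) was lost within series 11 and without the 0, 1, 6 or 9 h downshift sample. Psme3, the other nuclear cap, was at 53.9, 56.7, 56.6, 49.9 and 46.1 RPKM and at 51.9, 50.9, 50.9, 49.2 and 46.8 RPKM, lowest at 9 h of both courses. Its difference was -0.10 ± 0.13 (adjusted p = 0.551). It was 0.10 in series 2 and 5 alone but -0.35 in series 11 and 13 alone. Psme1 overlaps Emc9 on the opposite strand.

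Counts by role were 3 of 4 activators, 6 of 7 beta ring, 4 of 7 alpha ring, 2 of 3 base non-ATPases, 4 of 8 lid, 2 of 6 ATPase and 0 of 3 base assembly chaperone genes called higher in the difference, and differences between roles were not tested. The end points were also compared directly. In 24 of 39 genes both samples with 9 h or more at 33 °C, the last of the downshift and the first of the upshift, lay above both samples with 9 h or more at 38 °C, where 24.3% of all genes did. In Psmd10 both lay below, as in 26.3% of all genes. These samples are also part of the fits. After the 16 h at the first temperature alone, 29 of 39 genes stood higher at 33 °C (background 51.1%). Psmd8, Psme1 and Psme2 did so by at least 25% (background 22.6%), and no gene was lower by at least 20% (background 19.9%). By the same bounds 9 were higher and 1 lower when only series 2 and 5 were used, and 3 higher and 3 lower with series 11 and 13. By sign alone, 34 stood higher at 33 °C within series 2 and 5, but 17 higher and 22 lower within series 11 and 13. The members' medians in log2 units were 0.17 and -0.03, those of all genes tested -0.010 and -0.0036. The excess at 33 °C at 0 h was therefore absent in series 11 and 13.

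Intron reads, which come mostly from RNA not yet spliced, gave few calls. Psmb1 (0.52 ± 0.12, edgeR, adjusted p = 0.0282) and Psmc1 (0.51 ± 0.13, adjusted p = 0.0393) were called with a higher intron change after the downshift (2 of 39, background 3.47%), and none with a lower one (background 4.02%). The median intron difference was 0.24, that of all genes 0.01, and 35 of 39 lay above 0 when scaled by the intron libraries (background 50.5%). Psmb1 introns went from 5.30 to 6.34 RPKM in the downshift and from 5.46 to 4.53 RPKM in the upshift, and Psmc1 introns from 6.55 to 7.75 RPKM and from 7.54 to 6.27 RPKM. Neither call held within series 2 and 5 or within series 11 and 13. When introns were scaled by the exon libraries the members' median was -0.06 and that of all genes -0.30, so the sign of both medians depends on the scaling, the members' median is the higher of the 2 under either, and no member was called with exon-library scaling.

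**Figure D5:**
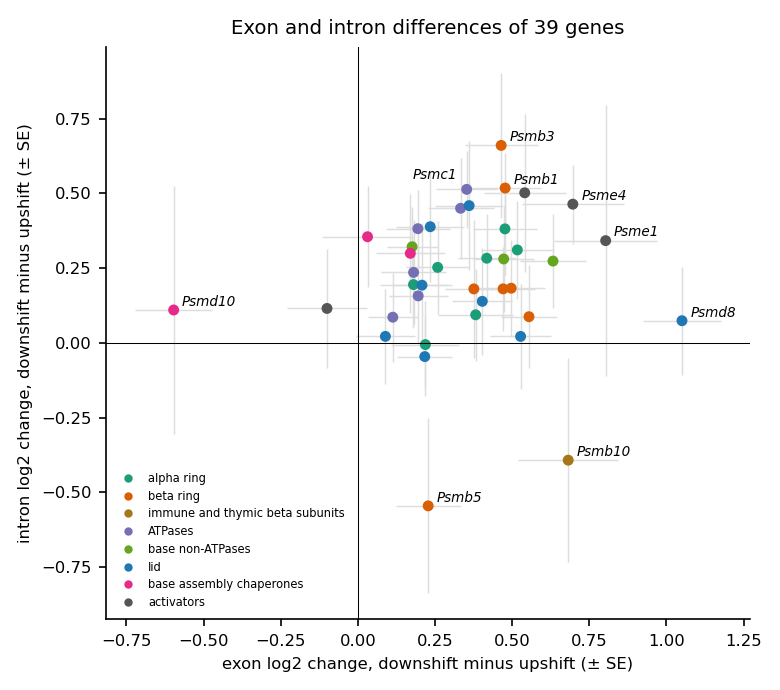
Fitted change from 0 to 9 h, downshift minus upshift, of exon reads (horizontal) and intron reads (vertical) for the 39 genes in log2 units, coloured by role, with standard errors as grey bars. Psmd8 lies at 1.05 for exons and 0.07 for introns, and Psmb5 and Psmb10 have the lowest intron values, -0.55 and -0.39.

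None of the 7 genes called on exons in both courses had a call on introns, where few of all genes tested had one (background 3.47% higher and 4.02% lower). Standard errors were larger on introns than on exons, 0.18 against 0.13 for Psmd8 and 0.42 against 0.12 for Psmd10. For the other 5, the intron differences ran from 0.02 (Psmd3) to 0.38 (Psma7). Psmd8 introns stayed between 5.80 and 6.86 RPKM in the 10 samples, with a difference of 0.07 ± 0.18 (edgeR, adjusted p = 0.827). Psmd10 introns lay between 0.833 and 1.39 RPKM, with a difference of 0.11 ± 0.42 (adjusted p = 0.891). Over the 39 genes, which share their libraries, Pearson's r between exon and intron differences was 0.10.

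The ratio of exon to intron reads rises when mature RNA gains on its precursor. Its difference was called higher in 8 of 39 genes (20.5%), close to the 18.4% of all genes tested, and lower in none (background 2.73%). The median was 0.37 for the members and 0.28 for all genes. The 8 genes were Psma3, Psmb4, Psmb5, Psmb10, Psmd1, Psmd3, Psmd8 and Psmd12. Psmd8 had 8.08, 8.77, 9.39, 12.2 and 12.5 exon reads per intron read over the downshift and 15.0, 13.6, 12.9, 11.1 and 9.56 over the upshift, a difference of 1.28 ± 0.19 (edgeR, adjusted p = 0.00216). Psmb10 went from 2.83 to 4.23 and from 6.21 to 3.08 (1.36 ± 0.35, adjusted p = 0.0208), and Psmb5 from 7.09 to 10.5 and from 11.8 to 7.67 (1.08 ± 0.28, adjusted p = 0.0209). The Psmb5 ratio was called although its exon level was not. The Psmb5 call was lost within each pair of series and the Psmb10 call within series 11 and 13, where 1 member was called in all. Left were 2 members without the 9 h downshift sample and 5 without the 6 h one. For these fits the shares of all genes called are not given here.

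Other genes of the pathway, in a list of 31 of which 29 were tested, moved both ways. On exons 11 had a higher and 5 a lower change after the downshift, against the backgrounds of 23.7% and 22.9%, with a median of 0.12. Higher were Nploc4, a cofactor of the segregase Vcp (0.92 ± 0.10, edgeR, adjusted p = 0.000174), Ecpas, which the tables list as AI314180 and which tethers core and regulatory particle (0.68 ± 0.08, adjusted p = 0.000226), and the ubiquitin ligase Ube3c (0.60 ± 0.11, adjusted p = 0.00192). Nploc4 went from 32.1 to 41.9 RPKM in the downshift and from 41.7 to 30.0 RPKM in the upshift. Ngly1, an enzyme that processes the transcription factor Nfe2l1, known as the activator of proteasome genes when the proteasome is inhibited, went from 1.114 to 1.499 RPKM and from 2.57 to 1.55 RPKM (1.12 ± 0.22, adjusted p = 0.00260). Ddi2, the protease that cleaves Nfe2l1, went the other way, from 9.25 to 6.44 RPKM and from 6.72 to 7.71 RPKM (-0.69 ± 0.11, adjusted p = 0.000946). Nfe2l1 itself differed by -0.24 ± 0.10 and was not called (adjusted p = 0.0731).

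Lower were also the shuttle genes Ubqln1 (-0.68 ± 0.11, edgeR, adjusted p = 0.000972), Ubqln2 (-0.55 ± 0.19, adjusted p = 0.0330) and Ubqln4 (-0.69 ± 0.15, adjusted p = 0.00413), which carry ubiquitylated proteins to the proteasome, and Psmg3, a chaperone of core assembly (-0.62 ± 0.13, adjusted p = 0.00352), whose call was lost within series 2 and 5 (-0.34). Ubqln1 went from 29.4 to 23.4 RPKM in the downshift and from 26.4 to 32.4 RPKM in the upshift, and it was the 1 of these 4 called in both courses. Of the core assembly chaperones, Psmg1, Psmg2, Psmg4 and Pomp had no call in the difference. In the downshift 10 of the 29 rose and 5 fell (background 15.9% and 16.2%), in the upshift 2 rose and 6 fell (background 16.2% and 17.0%), and for the mean of both none was called.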

How the data were processed

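The data are 10 total RNA samples of NIH3T3 cells, depleted of ribosomal RNA, with strand-specific libraries read from both ends, per the labels' protocols. The submitters' processing notes name STAR, bedtools and mm10. No source used here states versions, annotation release or counting rules. The deposited tables hold estimated counts (expected counts) of exon and intron reads per gene, although they are named for RPKM: column totals differ (22403625 to 48004854 for exons) and only 22.9% of positive exon values lie within 1e-06 of a whole number. Values were rounded. The 2 columns of each sample were summed as 1 sample, although they differ beyond sampling noise, with a chi-square per degree of freedom from 98.9 to 354. The labels do not state if columns or times are separate cultures, so p-values measure only the spread of these samples around the time trend. In 1 sample the labelled temperature is mistyped, and the course was taken from its description.

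The model, in edgeR 4.0.16 under R 4.3.3, used TMM scaling, an offset per gene for which series a sample mixes, and an intercept and slope on log2(h + 1) for each course. A change is the slope from 0 to 9 h, and its standard error is the change over the square root of the F statistic. Tested were 10174 genes whose exon RPKM averaged 1 or more, and for introns and ratios 9353 that also had at least 0.05 intron RPKM. Calls were made at 0.05 after Benjamini-Hochberg adjustment over all genes tested. The ratio was the interaction of read type and slope. RPKM used GENCODE M21 lengths (95.3% of rows found) and TMM libraries. Level comparisons without a test used log2 of RPKM plus 0.1 and bounds of 25% higher or 20% lower. The fit was also run on simulated counts with known changes, whose means and spread came from these same samples. That outcome is not given here, and no result rests on it.

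Members and gene lists were chosen with earlier results of these data known. Named in full were up to 4 called members per exon contrast and direction, up to 3 for intron and ratio, the proteolytic subunits, the highest and lowest level, the genes next to the minimum, and up to 4 list genes per direction; genes called in both courses or printed as role examples were chosen after their values were seen. Alternatives were DESeq2 1.42.0, limma 3.58.1 on log2 RPKM, DESeq2 size factors, no filter, each pair of series, linear hours, a time block and each sample left out. Chosen after seeing the data were no offset, series 10 added and introns on exon libraries.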

Additional observations from a re-analysis of the deposited data

How the results depend on the processing

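The count of 23 proteasome genes called in the exon difference was between 20 and 26 when 1 sample was left out, and 14 within series 2 and 5. Of the 23 genes, 18 were called in all 10 such fits and 11 under all 20 alternatives. The exon downshift count of 20 ran from 3 to 22 with 1 sample left out and was 3 within series 11. The upshift count of 11 ran from 3 to 12, and was 6 without the filter on low values, 3 within series 2 and 7 with linear hours. The mean of both courses gave 1 call with linear hours and 0 in every fit with 1 sample left out. The intron count of 2 ran from 0 to 3 and was 4 with DESeq2, 1 within series 11 and 13, and 0 within series 2 and 5, with linear hours, with the time block and with exon-library scaling. The ratio count of 8 ran from 2 to 9 and was 5 without the filter, 1 within series 11 and 13 and 1 with the time block. The count at least 25% higher or 20% lower at 0 h was 3, and 10 and 6 within the pairs. The Psmd9 exon difference reversed to -0.0436 within series 2 and 5, and with 1 sample left out it ran from -0.108 to 0.209, with -0.0168 without the 1 h downshift sample the other value below 0. The Psmb5 exon difference passed with limma (0.227 on the log2 scale). The causes were not tested. Where the share of all genes called in the same fit is not given, a count cannot be set against that of all genes.

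Samples of the same time share only a number: their residuals correlated by -0.246 to -0.0811, and 0 of 10 samples correlated best with their namesake. With time as a replicate block the exon difference count was 22. At 446 to 791 exon reads per sample Psmb10 has the least depth of the members, and intron values of short-intron genes rest on fewer reads still.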
